A study of Homo sapiens with 6 samples.

Results

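The 35 genes of glycolysis and the pentose phosphate pathway were followed through RNA sequencing of PC3 cells after paxillin knockdown. They were chosen by name, as glucose and lactate transporters and enzymes of the pathway steps. The rule used no measured value, but it was set with earlier results of these data known. All 35 were found among the 23285 genes of the deposited table, and all 35 passed the filter on low counts. PC3 is an established prostate cancer line that, per the labels, came from a metastasis in bone. The cells carried no labelled alteration beyond the transfection, and all grew in the same serum-containing medium. The control group of 3 libraries received non-specific siRNA and the other group of 3 libraries received siRNA against paxillin, both for 72 h. Paxillin, encoded by *PXN*, is an adaptor of focal adhesions, and the question was which transcripts differ when it is reduced. PC3 is 1 line, neither the siRNA sequences nor their number were stated, and nothing says that the replicates were separate cultures. The spread behind every p-value may therefore be technical rather than between cultures.

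Glycolysis splits glucose into pyruvate. Its preparatory phase spends ATP to trap and cleave the sugar, and its payoff phase, from glyceraldehyde-phosphate dehydrogenase to pyruvate kinase, regains ATP and yields NADH. Lactate dehydrogenase reoxidises the NADH, and monocarboxylate transporters carry the lactate across the membrane. The pentose phosphate pathway branches off at glucose phosphate and supplies NADPH and ribose phosphate for nucleotides. Tumour cells are known for a high flux through these routes even when oxygen is present, and many of the genes are known targets of hypoxia-inducible factors and of Myc.

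Levels below are CPM, counts relative to library size, scaled by TMM factors that correct for library composition, and replicates 1, 2 and 3 are always listed in that order. The target gene checked the labels. *PXN* stood at 835, 854 and 718 CPM with non-specific siRNA and at 59.2, 55.7 and 91.7 CPM with paxillin siRNA. The libraries held 22209765 to 33627605 reads, with replicate 3 the shallowest of each group. Genes of the *MTRNR2L* family, nuclear copies of a mitochondrial ribosomal RNA gene, took 1.11% to 1.599% of the counts in the control libraries and 2.33% to 4.93% in the paxillin siRNA libraries, and their part in the results was not tested. The keratin genes *KRT8*, *KRT18* and *KRT19* were at 171 to 565 CPM in all 6 libraries. *EPCAM* and *CDH1*, epithelial adhesion genes, were higher with paxillin siRNA (log2 fold changes of 2.96 and 1.96, adjusted p = 0.0337 and 0.0496 by edgeR). The androgen-responsive prostate gene *KLK3* was at 0 in 5 libraries, but the 5 genes of its list together were not, as given below. The leukocyte genes *PTPRC* and *CD3E*, the fibroblast gene *DCN* and the endothelial gene *CDH5* reached at most 0.108 CPM. Other markers of the same cell types were not near 0: *COL1A1* was at 49.2 to 107 CPM, *COL3A1* at 4.83 to 25.6 CPM and *KDR* at 73.3 to 112 CPM with non-specific siRNA and 133 to 146 CPM with paxillin siRNA. With the replicate block described below, *KDR* and the weakly expressed leukocyte gene *LYZ* (0.242 to 1.08 CPM) were higher with paxillin siRNA (edgeR adjusted p = 0.00624 and 0.0286), and the part of these markers in the results was not tested. Summed FPKM (fragments per kilobase of transcript, scaled to library size) of the 6 fibroblast markers was 3.48 to 7.11 in the control group and 3.83 to 6.90 in the paxillin siRNA group, and for the 5 endothelial markers 3.86 to 5.76 and 6.48 to 7.33. For the 5 androgen-responsive prostate genes it was 4.48 to 6.87 and 7.15 to 8.64. Of these 5, 3 were tested, and with the block 1 was lower and 1 higher (10.7% and 11.7% of all genes).

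Transcripts of the pathway were lower in the cells given paxillin siRNA at nearly every step. The median log2 fold change was -0.88 for the 6 payoff genes, -0.78 for the 2 lactate dehydrogenase genes and -0.54 for the 11 preparatory genes. It was -0.35 for the 4 transporters, -0.25 for the 6 pentose phosphate genes and -0.23 for the 3 side-branch genes. In pair 2, 115% of the summed CPM of the transporters was left. For the 3 genes that control fructose-2,6-bisphosphate the median was -1.03, but 1 of them, *PFKFB2*, was higher, at 0.68. Summed over the 35 genes, the level was 17066, 13369.7 and 18897 CPM in the control libraries and 8105, 7917 and 12977 CPM in the paxillin siRNA libraries. The groups did not overlap in this sum. Between libraries of the same replicate number, 47.5%, 59.2% and 68.7% of it was left. Abundant transcripts weigh most in the sum: the 6 payoff genes alone held 10199.7, 7854 and 11320 CPM of it in the control libraries. Of the 35 genes, 32 had a negative log2 fold change and *ADPGK*, *PFKFB2* and *SLC16A1* a positive one. The median over the 35 was -0.53, beside 0.00 over the 15876 genes tested, and the replicate numbers gave medians of -0.79, -0.44 and -0.40.

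The test decided how many of these differences could be called. With edgeR's quasi-likelihood test and no term for the replicate number, 0 of the 35 genes were lower and 0 were higher at an adjusted p under 0.05, where 0.302% and 0.882% of all genes were called. At an unadjusted p under 0.05, 21 of the 35 passed, as did 22.5% of all genes. At an adjusted p under 0.05, limma-voom called 0 of the 35 and 147 of all genes. DESeq2 called 14 lower and 1 higher (5.11% and 4.93% of all genes). The same-numbered libraries of the 2 groups deviated together, so the fit with the replicate number as a block is given beside it. With the replicate block 23 of the 35 genes were lower and 1 was higher, where 10.7% and 11.7% of all genes were called. Below, "fell" and "rose" refer to this fit, and each adjusted p is edgeR's Benjamini-Hochberg value over all genes tested. The number of calls with the block depended most on replicate 1, among the 35 genes and among all genes alike. Without both libraries of that number 2 genes, *PFKFB3* and *PFKFB4*, were lower (1.09% of all genes, with 1.77% higher). In that fit 32 of the 35 log2 fold changes were still negative. Without number 2, 13 were called lower (4.1%), and without number 3, 23 were (14.5%). Without the block, leaving out paxillin siRNA replicate 3 alone gave 16 lower genes and 1 higher (7.88% and 7.24%). Leaving out any other library gave 0, but those fits called only 0 to 65 of all genes.

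Counted without a model, 17 of the 35 genes had all 3 paxillin siRNA libraries below all 3 control libraries, which held for 14.7% of all genes. For 2 genes, *ADPGK* and *PFKFB2*, the paxillin siRNA libraries lay wholly above (13.6% of all genes), and for 16 the groups overlapped. Within replicate numbers, 27 of the 35 were lower with paxillin siRNA in all 3 pairs and 3 were higher in all 3, beside 28.7% and 29.2% of all genes. The plot of differences by replicate number shows that 26 of the 35 genes differed most in the negative direction in pair 1.

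**Figure D1:**
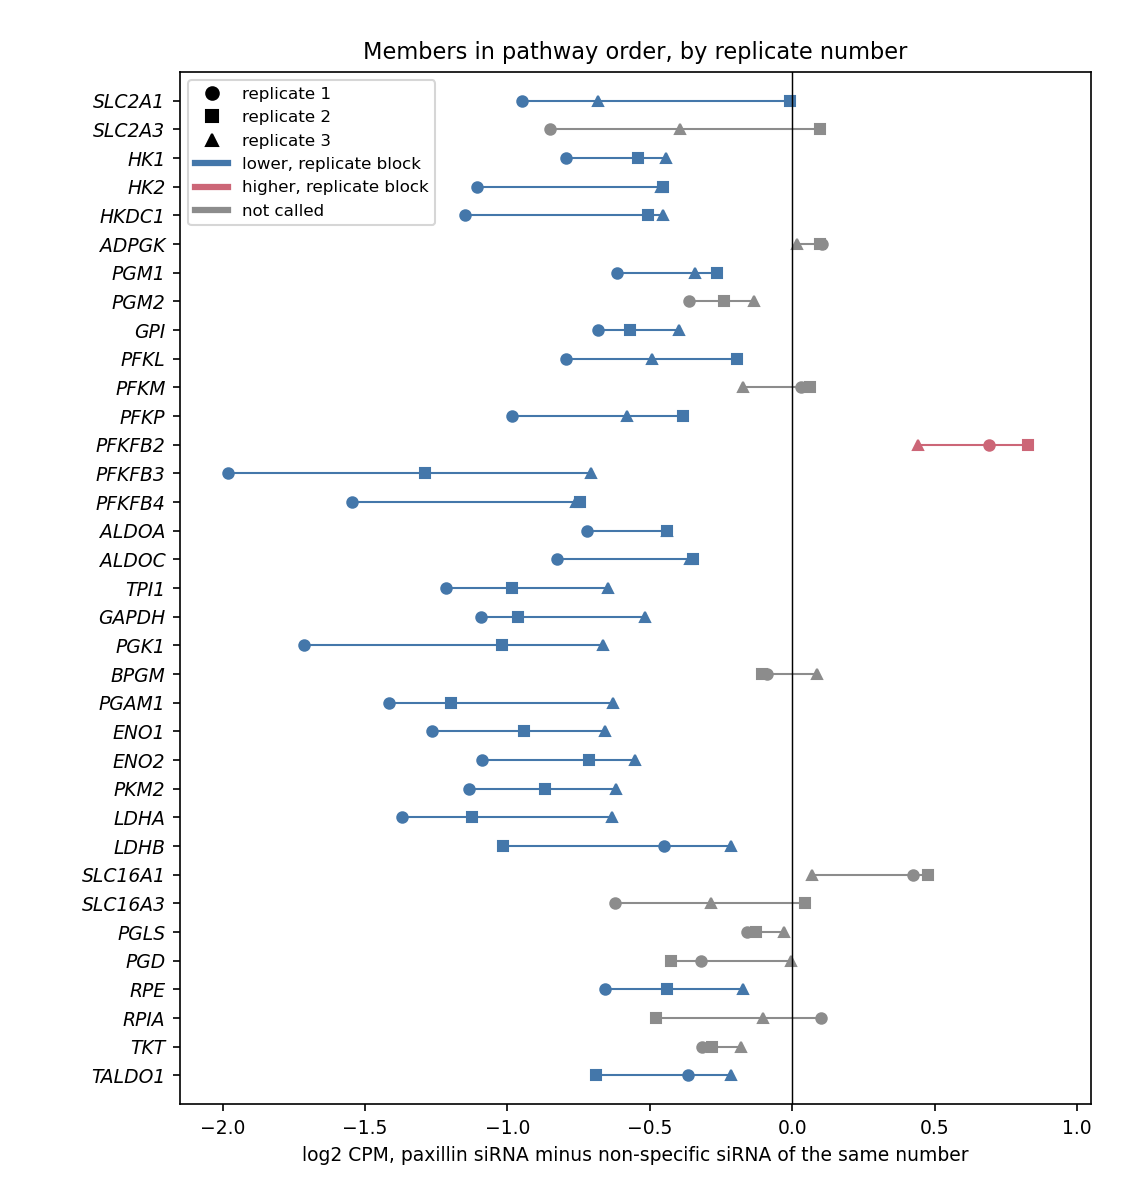
Difference in log2 CPM between paxillin siRNA and non-specific siRNA libraries of the same replicate number (horizontal axis) for the 35 genes in pathway order (vertical axis). Circles, squares and triangles are replicates 1, 2 and 3, lines span the 3 differences, and colour gives the call with the replicate block: blue for the 23 lower genes, red for *PFKFB2* and grey for the 11 not called. The points of *PFKFB3*, *PGK1* and *PFKFB4* reach furthest to the left.

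Since the genes moved together, the sequence just upstream of their transcription starts is shown for 4 of them: the 3 with the most negative fold change and the 1 with the fold change nearest to 0 with the replicate block, among the 22 genes with a single start in RefSeq. *PGK1* encodes phosphoglycerate kinase (chromosome X, 77359666 to 77382324 in hg19), *PGAM1* phosphoglycerate mutase (chromosome 10, 99186027 to 99193198), *PFKFB4* a kinase and phosphatase that sets fructose-bisphosphate levels (chromosome 3, 48555117 to 48594227) and *BPGM* bisphosphoglycerate mutase (chromosome 7, 134331531 to 134364567). The 250 bases upstream of each start are from RefSeq on GRCh38.p14, 5′ to 3′ on the strand of the gene, which is the minus strand for *PFKFB4* and the plus strand for the others. Capitals mark ACGTG or GCGTG on either strand, the core letters that hypoxia-inducible factors are known to recognise.
PGK1, chrX:78103998-78104247: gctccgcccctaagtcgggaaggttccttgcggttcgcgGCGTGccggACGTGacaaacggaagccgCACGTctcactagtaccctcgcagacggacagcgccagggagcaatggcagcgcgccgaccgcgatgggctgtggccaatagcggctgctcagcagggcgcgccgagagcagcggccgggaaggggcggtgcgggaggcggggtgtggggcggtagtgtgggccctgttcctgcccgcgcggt
PGAM1, chr10:97427568-97427817: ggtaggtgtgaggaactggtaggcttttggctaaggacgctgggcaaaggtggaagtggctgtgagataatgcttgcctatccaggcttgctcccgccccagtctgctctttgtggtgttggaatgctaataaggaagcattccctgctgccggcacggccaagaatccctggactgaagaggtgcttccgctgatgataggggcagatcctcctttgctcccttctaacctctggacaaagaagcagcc
PFKFB4, chr3:48556804-48557053: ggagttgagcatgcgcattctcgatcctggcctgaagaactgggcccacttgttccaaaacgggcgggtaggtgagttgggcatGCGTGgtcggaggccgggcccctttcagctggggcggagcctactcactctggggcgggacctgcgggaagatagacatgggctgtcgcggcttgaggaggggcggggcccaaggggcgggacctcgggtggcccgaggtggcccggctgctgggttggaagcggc
BPGM, chr7:134646603-134646852: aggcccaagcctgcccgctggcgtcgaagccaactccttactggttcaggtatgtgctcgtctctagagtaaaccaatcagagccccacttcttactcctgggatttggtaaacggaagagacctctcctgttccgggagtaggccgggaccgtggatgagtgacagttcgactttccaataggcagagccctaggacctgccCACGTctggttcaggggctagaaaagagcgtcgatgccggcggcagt
The stretch of *PGK1* holds 3 matches, starting 211, 202 and 183 bases before the start site, that of *PFKFB4* holds 1 and that of *PGAM1* holds 0. All 3 genes fell. The stretch of *BPGM*, which was not called, holds 1. RefSeq windows of 300 bases, from 250 before to 50 after a start, were found for 32 of the 35 genes, and *SLC2A3*, *PFKFB2* and *SLC16A1* were not matched. ACGTG, searched on both strands, was in 37.5% of the 40 windows of the 23 genes that fell, in 31.6% of the 19 windows of the other 9 genes and in 21.4% of all 35116 windows. GCGTG was in 47.5%, 31.6% and 36.5%. The longer CACGTG, known as an E-box and containing ACGTG, was in 15% of the 40, 5.26% of the 19 and 7.26% of all windows. GGGCGG, a GC box known to bind Sp1, was in 70%, 68.4% and 45.0%. The set of all windows was not matched to these genes in expression or base composition. Windows of 1 gene overlap each other, and a match describes the letters, not binding. The part of these matches in the differences was not tested.

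Per unit of transcript length the genes spanned a wide range of levels. In the control libraries *GAPDH* was the highest at 528 ± 44.8 FPKM (SD, n = 3), followed by *ENO1* at 419 ± 67.4, *LDHA* at 325 ± 82.1, *PKM2* at 277 ± 57.7 and *PGK1* at 234 ± 86.9 FPKM. *LDHA* and *PKM2*, and *PKM2* and *PGK1*, lay closer together than the SD of either, whereas *GAPDH* and *ENO1* lay further apart than theirs. The lowest were *SLC2A3* at 1.03 ± 0.340 and *HKDC1* at 0.799 ± 0.103 FPKM. The levels of *ENO1*, *PGK1* and *SLC2A3* are uncertain because of related copies, described below. With paxillin siRNA *GAPDH* was again the highest, at 284 ± 84.8 FPKM, and *HKDC1* the lowest, at 0.478 ± 0.146. The 6 payoff genes took 1.013%, 0.782% and 1.08% of all counts in the control libraries and 0.441%, 0.429% and 0.714% with paxillin siRNA. In a bulk sample such a share cannot be divided between fewer cells that express a gene and less RNA of it per cell, which cannot be told apart here.

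**Figure D2:**
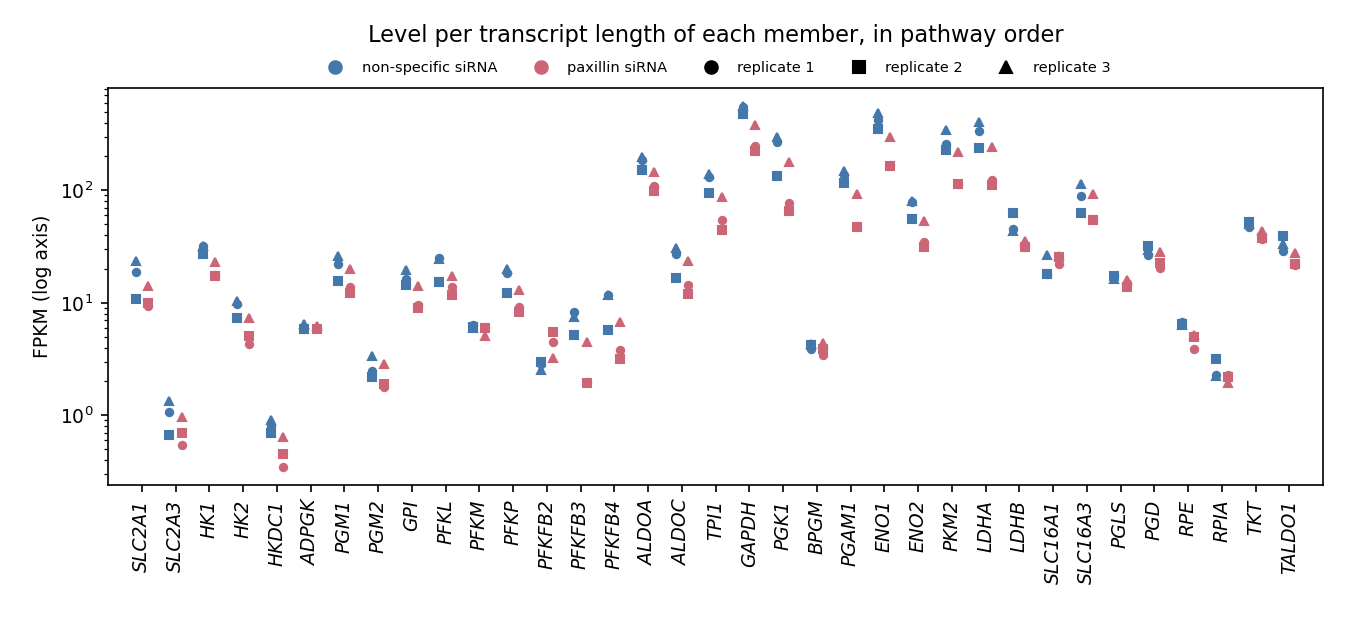
FPKM on a log axis (vertical) of each of the 35 genes in pathway order (horizontal), 1 point per library, with blue for non-specific siRNA and red for paxillin siRNA and circles, squares and triangles for replicates 1, 2 and 3. *GAPDH* is the highest, at 528 FPKM on average in the control libraries, followed by *ENO1*, *LDHA*, *PKM2* and *PGK1*, and *HKDC1* and *SLC2A3* the lowest.

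Glucose enters through the carriers *SLC2A1* (GLUT1) and *SLC2A3* (GLUT3). *SLC2A1* was at 195, 110.1 and 235 CPM with non-specific siRNA and at 101, 109 and 146 CPM with paxillin siRNA. The groups overlapped, because control replicate 2 was as low as the paxillin siRNA libraries, and in pair 2 99.4% of the level was left. It fell with the replicate block (log2 fold change -0.55, adjusted p = 0.0316), and its adjusted p without the block was 0.251. *SLC2A3* was at 11.7, 7.55 and 14.1 and at 6.43, 8.08 and 10.7 CPM, overlapped as well and was not called (adjusted p = 0.425, and 0.168 with the block).

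Hexokinases phosphorylate the incoming glucose. *HK1* was at 369, 313 and 366 CPM and fell to 213, 215 and 269 CPM (log2 fold change -0.59 ± 0.14 (SE), adjusted p = 0.00946 with the block and 0.0915 without). All 3 paxillin siRNA libraries were below all 3 control libraries. *HK2*, the isozyme that is known to be induced in many tumours, fell from 206, 157 and 215 to 95.5, 115 and 156 CPM (log2 fold change -0.67 ± 0.15, adjusted p = 0.00813 with the block and 0.129 without), also without overlap. *HKDC1*, a weakly expressed relative, fell from 10.5, 8.94 and 11.5 to 4.67, 6.27 and 8.38 CPM. *ADPGK*, which uses ADP in place of ATP to phosphorylate glucose, did not share this direction. It was at 41.9, 42.6 and 45.1 CPM with non-specific siRNA and at 45.1, 45.6 and 45.6 CPM with paxillin siRNA (adjusted p = 0.687 with the block), and the sign of its difference was negative on the FPKM scale. Of the 4 genes that phosphorylate glucose, 3 fell, beside 10.7% of all genes.

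Phosphoglucomutases link the pathway to glycogen. *PGM1* fell from 161, 113 and 183 to 105, 94.1 and 145 CPM (adjusted p = 0.0336 with the block and 0.320 without), with overlapping groups, since control replicate 2 was below paxillin siRNA replicate 3. *PGM2* was at 23.3, 21.6 and 30.3 and at 18.1, 18.3 and 27.6 CPM and was not called (adjusted p = 0.183 with the block). Glucose-phosphate isomerase, *GPI*, which makes fructose phosphate, fell from 198, 173 and 228 to 124, 116 and 173 CPM (log2 fold change -0.55 ± 0.12, adjusted p = 0.00896 with the block and 0.156 without). Paxillin siRNA replicate 3 and control replicate 2 were at the same level to 3 digits, and the other libraries were apart.

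Phosphofructokinase commits the sugar to glycolysis and has a liver-type, a muscle-type and a platelet-type subunit. The liver-type *PFKL* fell from 207, 122 and 199.6 to 119, 106 and 142 CPM (adjusted p = 0.0226 with the block and 0.213 without). The platelet-type *PFKP* fell from 143, 90.9 and 151 to 72.3, 69.6 and 101 CPM (log2 fold change -0.65 ± 0.14, adjusted p = 0.00603 with the block and 0.147 without). In both genes the groups overlapped through control replicate 2. The muscle-type *PFKM* was level across libraries, at 64.5, 62.9 and 60.0 CPM with non-specific siRNA and at 65.9, 65.7 and 53.3 CPM with paxillin siRNA (adjusted p = 0.944, and 0.903 with the block), and the sign of its small difference changed with scaling to total counts.

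The bifunctional PFKFB enzymes make and break fructose-2,6-bisphosphate, the strongest known activator of phosphofructokinase, and their genes parted ways. *PFKFB3*, whose product mostly makes the activator, was at 106, 65.4 and 93.9 CPM with non-specific siRNA and at 26.8, 26.7 and 57.5 CPM with paxillin siRNA (chromosome 10, 6186843 to 6277507 in hg19). No paxillin siRNA library reached the lowest control library, and 25.3%, 40.9% and 61.3% of the level was left in the 3 pairs. Its log2 fold change of -1.32 ± 0.19 was the most negative of the 35 genes with the block (adjusted p = 0.000881, and 0.0915 without the block at -1.26 ± 0.33). *PFKFB4* fell from 132, 63.4 and 127 to 45.3, 37.9 and 75.3 CPM (log2 fold change -1.02 ± 0.16, adjusted p = 0.00132 with the block and 0.135 without). Its groups overlapped, with control replicate 2 below paxillin siRNA replicate 3.

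*PFKFB2*, known as the heart-type gene (chromosome 1, 207226620 to 207254368), went the other way. It was at 51.0, 57.7 and 44.9 CPM with non-specific siRNA and rose to 82.3, 103 and 61.0 CPM with paxillin siRNA. Every paxillin siRNA library was above every control library, by the least in replicate 3. The log2 fold change was 0.65 ± 0.12 (adjusted p = 0.00353 with the block, and 0.112 without it at 0.68 ± 0.20), and DESeq2 without the block gave an adjusted p of 0.0336. Per length, *PFKFB3* was 2.94, 1.74 and 3.00 times as high as *PFKFB2* in the control libraries. With paxillin siRNA the ratio was 0.445, 0.353 and 1.40, so that *PFKFB2* became the higher of the pair in 2 of 3. The difference in log2 ratio was -2.04 (exact two-sided permutation test, p = 0.1, the smallest that 3 against 3 allows; adjusted over 11 ratios, 0.275).

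**Figure D3:**
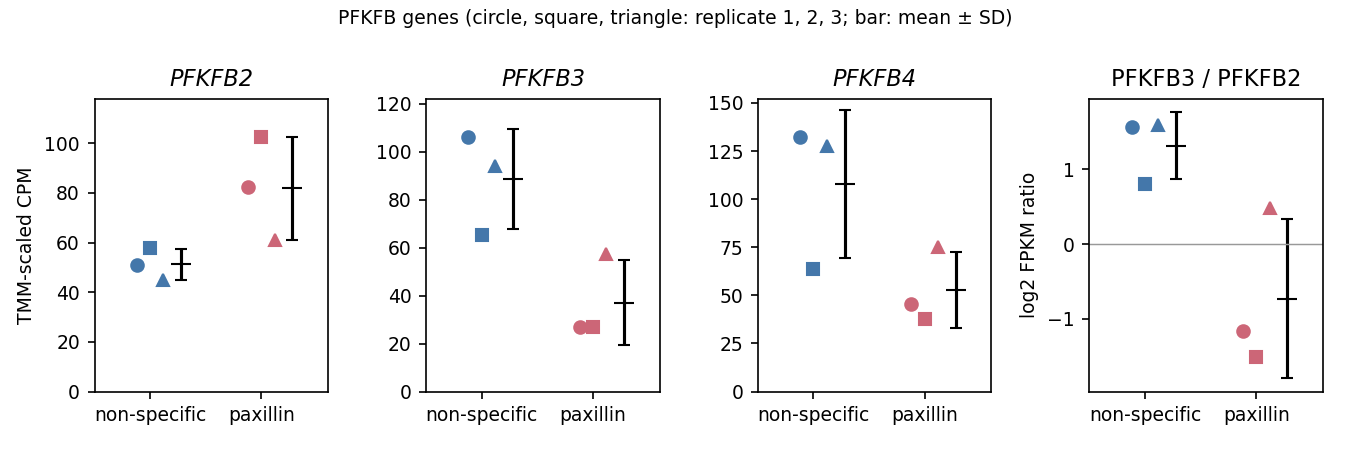
TMM-scaled CPM of *PFKFB2*, *PFKFB3* and *PFKFB4* in each library and, at the right, the log2 ratio of *PFKFB3* to *PFKFB2* in FPKM, by siRNA group. Circles, squares and triangles are replicates 1, 2 and 3 and bars are mean ± SD (n = 3). *PFKFB2* is higher with paxillin siRNA in all 3 libraries, *PFKFB3* is lower in all 3, and the ratio stays above 0 in paxillin siRNA replicate 3 only.

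Aldolase cleaves the sugar and triosephosphate isomerase interconverts the products. *ALDOA* fell from 779, 617 and 816 to 472, 455 and 602 CPM (adjusted p = 0.0225 with the block and 0.144 without), without overlap. *ALDOC*, best known from brain, fell from 132, 80.1 and 148 to 74.6, 62.8 and 115 CPM (adjusted p = 0.0162 with the block and 0.330 without), with overlap. *TPI1* fell as well. It was at 534, 383 and 559 CPM and at 230.0, 193 and 357 CPM, without overlap (log2 fold change -0.95 ± 0.15, adjusted p = 0.00141 with the block and 0.103 without).

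All 6 payoff genes fell, beside 10.7% of all genes. Their median log2 fold change was -0.88 without the block and -0.91 with it. Glyceraldehyde-phosphate dehydrogenase, *GAPDH*, was at 2113, 1800.2 and 2100.4 CPM with non-specific siRNA and at 992, 924 and 1469 CPM with paxillin siRNA (log2 fold change -0.86 ± 0.18, adjusted p = 0.00627 with the block and 0.0919 without). *GAPDH* is often used as a constant reference gene, and 46.9%, 51.3% and 69.9% of its level was left in the 3 pairs. *PGK1*, which makes the first ATP of the payoff phase, was at 2020.2, 1047 and 2172 CPM and at 615, 517 and 1371 CPM. Its fall was the widest of the phase (log2 fold change -1.13 ± 0.21, adjusted p = 0.00301 with the block and 0.189 without), but control replicate 2 lay below paxillin siRNA replicate 3, so the groups overlapped. The control libraries alone spanned 1047 to 2172 CPM for *PGK1*.

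*PGAM1* fell from 653, 558 and 696 to 245, 243 and 450.4 CPM (log2 fold change -1.08 ± 0.17, adjusted p = 0.00134 with the block and 0.0892 without), with no overlap. Enolase, which makes phosphoenolpyruvate, is encoded by the ubiquitous *ENO1* and the neuronal *ENO2*. *ENO1* was at 2712, 2188 and 3026 and at 1129.6, 1139 and 1919 CPM, so that 41.6%, 52.1% and 63.4% was left. *ENO2* fell from 578, 411 and 579 to 272, 250.2 and 395 CPM (log2 fold change -0.79 ± 0.15, adjusted p = 0.00379 with the block and 0.108 without). Pyruvate kinase, listed under the older symbol *PKM2* and counting all transcripts of the gene, was at 2123, 1850.5 and 2746 and at 967, 1013 and 1788 CPM. In *ENO1*, *ENO2* and *PKM2* alike every paxillin siRNA library was below every control library and paxillin siRNA replicate 3 was the closest to them. *BPGM*, a side branch of this phase that makes bisphosphoglycerate, was at 19.9, 22.6 and 21.5 and at 18.7, 20.9 and 22.8 CPM and was not called (adjusted p = 0.907, and 0.870 with the block).

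**Figure D4:**
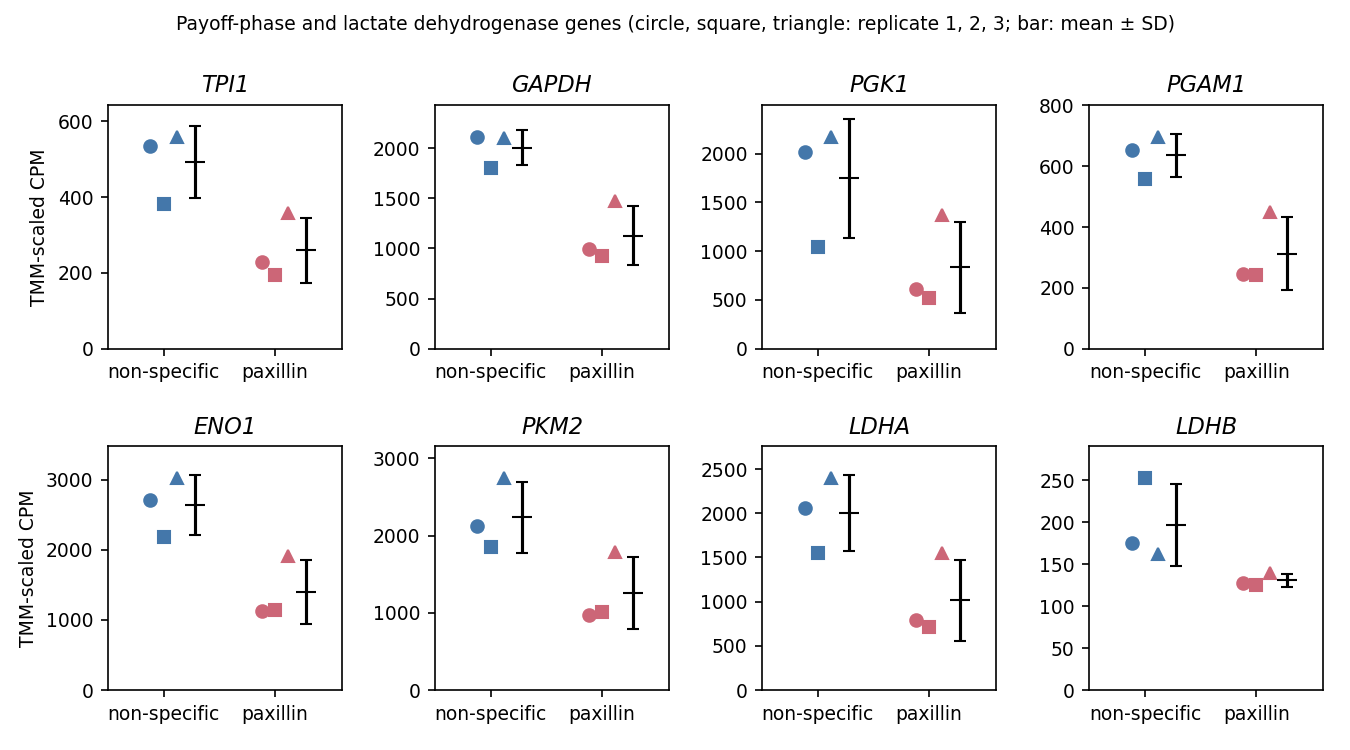
TMM-scaled CPM of *TPI1*, 5 payoff genes and the lactate dehydrogenase genes in each library, by siRNA group, each panel with its own axis from 0. Circles, squares and triangles are replicates 1, 2 and 3 and bars are mean ± SD (n = 3). In 7 of the 8 panels the paxillin siRNA libraries lie below all control libraries, the exception being *PGK1*, where control replicate 2 (1047 CPM) is below paxillin siRNA replicate 3 (1371 CPM).

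Some of these genes have related copies whose listed counts followed theirs at a nearly constant share. *PGAM4*, a copy of *PGAM1* that arose from its mRNA, was listed at 110.8% to 111.6% of the count of *PGAM1* in all 6 libraries, while *PGAM1* itself ranged from 243 to 696 CPM. The first 120 coding bases of each show how little separates them, with the 3 bases that differ in capitals (GENCODE).
PGAM1: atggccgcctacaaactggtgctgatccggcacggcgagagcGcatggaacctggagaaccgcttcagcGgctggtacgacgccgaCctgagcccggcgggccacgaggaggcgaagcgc
PGAM4: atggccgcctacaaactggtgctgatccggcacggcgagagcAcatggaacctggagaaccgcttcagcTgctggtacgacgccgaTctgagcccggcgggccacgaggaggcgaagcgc
Over the whole coding sequence they were 98.3% identical, with a longest shared run of 269 bases, and 46.7% of the 50-base stretches of *PGAM1* were also in *PGAM4*. *SLC2A14* was listed at 94.4% to 98.6% of *SLC2A3* (89.8% identical, longest shared run 137 bases), *PGK2*, a gene known from testis, at 75.2% to 78.7% of *PGK1* (85.5%, 49 bases) and *ENO3* at 16.3% to 17.2% of *ENO1* (76.1%, 33 bases). The last 2 pairs share 0 stretches of 50 bases, and *ENO2*, 75.9% identical to *ENO1*, ranged from 18.8% to 24.1% of it. By contrast *LDHB* ranged from 6.76% to 17.6% of *LDHA*, and *PFKM* from 30.1% to 61.8% of *PFKL*. Isozymes that fell together lay in between, with *PFKP* at 60.6% to 75.5% of *PFKL* and *HK2* at 44.9% to 58.9% of *HK1*. A fairly steady share was therefore not limited to close copies. How reads were assigned between copies was not tested. The levels of *PGAM1* and *SLC2A3*, which share long stretches with their copies, are uncertain, and so are those of *PGK1* and *ENO1*. The shares of *PGK2* and *ENO3* had an SD of 1.62% and 1.67% of their mean, beside 1.51% for *SLC2A14*. For *PFKP* to *PFKL* it was 8.14%, and for *HK2* to *HK1* 9.90%. Per length, *PGK2* was listed above *PGK1*, at 267 and 234 FPKM on average in the control libraries. These pairs were picked after their values were seen. Of 19 isozymes of the same steps that are known to be restricted to other tissues, 15 were tested. With the block 8 of them fell, beside 10.7% of all genes. The 4 with the smallest p were *LDHAL6B*, *LDHAL6A*, *LDHC* and *PKLR*, which tracked *LDHA* at 7.87% to 8.55%, 3.13% to 3.38% and 3.72% to 4.29%, and *PKM2* at 2.04% to 2.48% of its count.

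Of the 35 genes, 7 are listed at the same start and end as another gene: *SLC2A1*, *ADPGK*, *PFKFB3*, *TPI1*, *ENO1*, *SLC16A1* and *RPE*. Such a shared locus need not give the bounds of the gene itself. The use of strand was not stated, and how far the genes overlap or how their reads were divided was not tested.

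Lactate dehydrogenase is built from a subunit that favours lactate formation, *LDHA*, and one that is known to favour the reverse, *LDHB*. *LDHA* was at 2057, 1548 and 2399 CPM with non-specific siRNA and fell to 795, 710.5 and 1546 CPM (chromosome 11, 18415936 to 18429765 in hg19). Control replicate 2 and paxillin siRNA replicate 3 nearly met, at 1548 and 1546 CPM, and the log2 fold change was -1.04 ± 0.19 (adjusted p = 0.00278 with the block and 0.137 without). *LDHB* fell from 175, 253 and 162 to 128, 125 and 139.5 CPM (log2 fold change -0.56 ± 0.15, adjusted p = 0.0216 with the block and 0.125 without). Here control replicate 2 was the highest library, and pair 2 had the widest difference, in contrast to *LDHA*, where pair 1 had it. The ratio of *LDHA* to *LDHB* per length was 7.32, 3.77 and 9.24 in the control libraries and 3.89, 3.55 and 6.87 with paxillin siRNA, with overlapping groups (exact permutation test, p = 0.3).

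The carriers that move lactate showed no call. *SLC16A3* (MCT4), the carrier known for export, was at 416, 275 and 518 CPM with non-specific siRNA and at 270.1, 283 and 425 CPM with paxillin siRNA (adjusted p = 0.534, and 0.199 with the block). *SLC16A1* (MCT1) was at 199, 212 and 284 CPM and at 267, 295 and 298 CPM, higher with paxillin siRNA in all 3 pairs (log2 fold change 0.31 ± 0.17, adjusted p = 0.315, and 0.109 with the block). It passed with the block when both libraries of number 3 were left out, and in no other setting run. Over the 4 transporters of glucose and lactate, 1 fell, beside 10.7% of all genes, a count too small to set apart from that share.

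The pentose phosphate genes differed less. Their 6 genes had a median log2 fold change of -0.25, and 79.7%, 76.4% and 91.5% of their summed CPM was left in the 3 pairs. Of the oxidative arm, the lactonase *PGLS* was at 39.1, 36.8 and 35.8 and at 34.97, 33.7 and 35.1 CPM. The dehydrogenase *PGD*, which forms NADPH, was at 156, 187 and 168 and at 125, 139.5 and 167 CPM. Neither was called (adjusted p = 0.556 and 0.185 with the block).

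In the non-oxidative arm, which exchanges sugars with glycolysis, 2 of 4 genes fell, beside 10.7% of all genes. The epimerase *RPE* fell from 44.5, 46.2 and 40.3 to 28.2, 34.0 and 35.7 CPM (adjusted p = 0.0330 with the block and 0.130 without). Transaldolase, *TALDO1*, fell from 95.2, 126 and 108 to 73.9, 78.1 and 92.7 CPM (adjusted p = 0.0323 with the block and 0.160 without). In both genes the groups did not overlap. Transketolase, *TKT*, was at 287, 304 and 301 and at 230.0, 250.2 and 266 CPM, also without overlap, but did not pass (log2 fold change -0.26 ± 0.13, adjusted p = 0.167 with the block). The isomerase *RPIA* was at 12.1, 17.3 and 11.4 and at 13.02, 12.4 and 10.7 CPM (adjusted p = 0.505 with the block).

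Ratios of isozymes within a library do not depend on how libraries are scaled to each other. Of the 11 ratios compared, *PFKFB3* to *PFKFB2* was the only one whose groups did not overlap. *PFKP* to *PFKM* was 2.94, 2.02 and 3.31 in the control libraries and 1.497, 1.38 and 2.56 with paxillin siRNA (difference in log2 ratio -0.63, exact permutation test p = 0.2). *SLC16A3* to *SLC16A1* was 4.98, 3.48 and 4.30 and then 2.496, 2.16 and 3.57 (-0.65, exact permutation test p = 0.2). Both ratios were lower in all 3 pairs. *HK2* to *HK1*, *ALDOA* to *ALDOC* and *ENO1* to *ENO2* differed by -0.08, -0.03 and -0.18 on the log2 scale.

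Libraries of 1 group differed among themselves in these genes. Control replicate 2 was the lowest control library for 23 of the 35 genes and the highest for 8, *PFKFB2*, *BPGM*, *LDHB* and 5 of the 6 pentose phosphate genes. Paxillin siRNA replicate 3 was the highest paxillin siRNA library for 31. Differences of the 35 genes in pair 1 correlated with those in pair 2 at 0.788, in pair 1 with pair 3 at 0.934 and in pair 2 with pair 3 at 0.722 (Pearson, across 35 genes, which are not independent and share the scaling of their libraries). The median difference was the largest in pair 1.

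Other gene lists varied with the libraries beside them. The median centred level, which is log2 CPM minus a gene's mean over the 6 libraries, was 0.36, 0.06 and 0.50 for the 35 genes in the control libraries and -0.41, -0.40 and 0.04 with paxillin siRNA. For 14 targets of hypoxia-inducible factors outside these pathways it was 0.31, -0.18 and 0.55 and then -0.43, -0.55 and 0.16. For 10 proliferation genes it was 0.38, 1.10 and 0.40 and then -1.07, -0.85 and 0.05. All 10 proliferation genes fell with the block, beside 10.7% of all genes. *UBE2C*, a ubiquitin-conjugating enzyme of mitosis, passed also without the block (45.3, 61.7 and 34.7 against 13.4, 11.5 and 20.1 CPM, adjusted p = 0.0410). The summed FPKM of the 10 proliferation genes was 107 to 166 in the control group and 37.6 to 78.9 in the paxillin siRNA group. Control replicate 2 was the highest library for proliferation and the lowest control library for the hypoxia targets. The part of either list in the result on glycolysis was not tested.

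**Figure D5:**
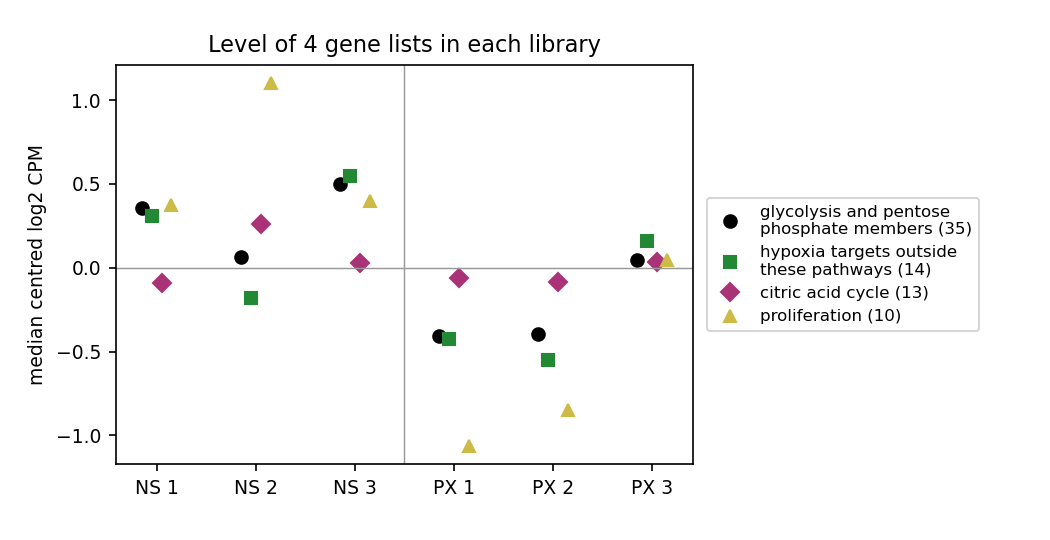
Median centred log2 CPM (vertical axis) of 4 gene lists in each library (horizontal axis, NS for non-specific siRNA and PX for paxillin siRNA with the replicate number), with the number of genes per list in the key. The 35 pathway genes and the hypoxia targets are both lower in NS 2 than in NS 1 and NS 3, whereas the proliferation genes are highest in NS 2 and the citric acid cycle stays between -0.09 and 0.26.

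Of the 14 hypoxia targets tested, 8 fell and 1 rose with the block, beside 10.7% and 11.7% of all genes. Their median log2 fold change without the block was -0.43. *BNIP3*, a mitophagy receptor, fell from 276, 135 and 282 to 77.0, 61.1 and 162 CPM (adjusted p = 0.000689 with the block and 0.143 without). The oxygen sensor *EGLN1* fell from 107, 68.2 and 112 to 50.3, 44.9 and 78.9 CPM. *NDRG1* and *BNIP3L* were the next by p (adjusted p = 0.00700 and 0.00903 with the block). *ADM*, the gene of adrenomedullin, was the 1 that rose. Of 9 genes chosen for their link to control of the pathway, 2 rose with the block, as did 11.7% of all genes. The other 7 were not called. The 2 that rose were the transcription factor *EPAS1* (HIF-2 alpha) and *TXNIP*, an arrestin-family protein known to limit glucose uptake, at log2 fold changes of 0.48 and 0.59. *HIF1A* was at 539.5, 512 and 589 and at 422, 415 and 591 CPM (adjusted p = 0.540, and 0.307 with the block).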

How the data were processed

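RNA from PC3 cells was sequenced in 6 libraries, 3 per siRNA group. The authors deposited a table of estimated counts and FPKM per gene on hg19; Cufflinks 2.0.2 and FastQC 0.10.1 are named per the submitters' processing notes. For aligner, annotation and strand use: not given in the sources used here. Estimated counts were rounded to whole numbers, filtered with filterByExpr (15876 of 23285 genes kept), scaled by TMM and tested with edgeR 4.0.16 (glmQLFit, glmQLFTest; R 4.3.3) with Benjamini-Hochberg adjustment over all genes tested; SE is the absolute log2 fold change over the square root of F. DESeq2 1.42.0 and limma 3.58.1 served as alternatives. FPKM values, as deposited by the authors, were used for levels between genes and for isozyme ratios. Read numbers come from the step that 1 read is worth in the estimated counts, and 91.1% to 91.6% of values were then whole within 0.05 of a read.

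Pairing was checked on the deviations from group means: same-numbered libraries correlated at 0.338, 0.431 and 0.562, so the replicate number was also fitted as a block. The labels do not say what the numbers stand for. The members and lists were chosen with earlier results of these data known. All members are named; from each other list the text names up to 4 genes by smallest p among those called without the block or, if there are none, with it, and others were chosen after their values were seen. Gene coordinates are hg19, with starts raised by 1, and promoters are from RefSeq on GRCh38.p14. The scripts were tested on simulated data. Some marker genes are not reported here.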

Additional observations from a re-analysis of the deposited data

How the results depend on the processing

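Without the replicate block, 0 of the 35 genes were called in either direction by edgeR with TMM, median-of-ratios or total-count scaling, without the count filter, on recovered reads, by limma-voom, or by limma on log2(FPKM + 1), without the FPKM filter, or on log2(FPKM + 0.1), whereas DESeq2 called 14 lower and 1 higher. With the replicate block, 23 were lower and 1 was higher by edgeR, DESeq2, limma-voom, median-of-ratios scaling and recovered reads, and 19 were lower and 1 higher with total counts and with log2(FPKM + 1). Over all genes, these settings without the block called 0 to 303 genes, and DESeq2 called 1595. The settings with the block called 1696 to 3704 of all genes. Leaving out 1 library gave 0 to 16 lower and 0 to 1 higher, with 0 to 2440 of all genes called. With the replicate block and without both libraries of number 1, 2 or 3, 2, 13 and 23 were lower and 0, 1 and 2 higher. Those fits called 455, 1336 and 4885 of all genes. The median log2 fold change was -0.67 to -0.43 when libraries were left out. Signs turned in genes that no setting called. With total counts *PFKM* was at 0.0419 (0.0310 with the block) and *BPGM* at 0.0202 (0.0203 with the block), and *ADPGK* was at -0.00927 with log2(FPKM + 1), with or without the block or the FPKM filter, and at -0.0105 with log2(FPKM + 0.1). Leaving out 1 library put *BPGM* at -0.108 to 0.0381, *RPIA* at -0.285 to 0.0276 and *PFKM* at -0.0705 to 0.0715, and the difference in log2 ratio at -0.169 to 0.0288 for *HK2* to *HK1* and at -0.133 to 0.121 for *ALDOA* to *ALDOC*. With the replicate block and 1 number left out, *BPGM* was at 0.000515 and *RPIA* at 0.00101 without number 2, *PFKM* at 0.0529 without number 3, *HK2* to *HK1* at 0.0415 without number 1 and *ALDOA* to *ALDOC* at 0.0218 without number 2. The cause was not tested. The settings for scaling and count filters do not apply to isozyme ratios. With 3 libraries a group, the exact permutation test cannot go below 0.1.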

Other observations

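Genes around the pathway were counted in the same fits, where 10.7% of all genes fell and 11.7% rose with the replicate block. Of 13 genes of pyruvate entry into mitochondria, 3 fell and 3 rose with the replicate block, and *PDK4*, a kinase that blocks pyruvate dehydrogenase, rose also without it. *PDK4* was at 8.57, 6.40 and 9.99 CPM with non-specific siRNA and at 44.9, 29.8 and 26.9 CPM with paxillin siRNA (log2 fold change 2.02 ± 0.25 (SE), adjusted p = 0.0252 by edgeR), without overlap. Its relatives *PDK1* and *PDK3*, chosen after their values were seen, fell with the block, *PDK1* from 61.0, 34.6 and 59.1 to 22.9, 18.2 and 43.1 CPM and *PDK3* from 36.8, 24.2 and 41.8 to 16.2, 12.2 and 28.02 CPM. Of 13 citric acid cycle genes, 0 were called by edgeR with or without the block or by DESeq2, and 1 had an unadjusted p under 0.05.

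Of 10 genes of the serine and glycerol branches 3 fell with the block, and *PHGDH*, the entry to serine synthesis, was at 155, 104 and 133 CPM and then at 62.0, 49.0 and 76.9 CPM (adjusted p = 0.000304 with the block and 0.0566 without). *GPD2* and *SHMT2* were the others. Of 8 genes of ribose phosphate and nucleotide entry 3 fell with the block: *PAICS*, *PRPS2* and *PPAT*, which act in the synthesis of purines or of their ribose donor. *PAICS* fell from 297, 351 and 358 to 119.5, 127 and 221 CPM (adjusted p = 0.000645 with the block and 0.0712 without). Of 12 tested glycogen and hexosamine genes 3 fell with the block, *GNPNAT1*, *GBE1* and *PYGL*. Of 5 tested gluconeogenesis genes 1 rose with the block, *FBP1*, at 6.65, 11.8 and 13.96 CPM and then at 19.04, 17.4 and 17.4 CPM (adjusted p = 0.0181 with the block). These counts stand beside 10.7% of all genes that fell and 11.7% that rose with the block.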
